A study of Mus musculus with 14 samples.

Results

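Integrins are the cell-surface receptors that hold cells to the extracellular matrix, and laminins are the matrix proteins that build the basement membrane around adipocytes, muscle fibres, nerves and vessels. An integrin is a heterodimer of an alpha and a beta chain, and the alpha chain largely sets the ligand: Itga3, Itga6 and Itga7 pair with Itgb1 to bind laminin, Itga1, Itga2, Itga10 and Itga11 bind collagen, and Itga5, Itga8, Itgav and Itga2b bind ligands that carry the RGD tripeptide, such as fibronectin and vitronectin. A laminin is a trimer of an alpha, a beta and a gamma chain. Adipocytes are wrapped in a basement membrane, whereas preadipocytes and other fibroblasts spread on fibronectin through focal adhesions.

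The genes described here are all those whose symbol names an integrin alpha or beta chain or a laminin chain, 39 of the 22836 gene symbols in the files. They comprise 18 integrin alpha chains, 9 integrin beta chains, 11 laminin chains and Itgbl1, a secreted integrin-beta-like protein that the symbol pattern also takes and that is not a receptor chain. A gene with more than 1 transcript was represented by the transcript with the highest mean level, which concerned 7 members, and silent genes were kept. Expression is given as RPKM, read number scaled to transcript length and library size, a scale on which genes of different length can be compared. RPKM stayed under 1 in all 14 libraries for 11 of the 39 members.

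The 14 libraries are all from mouse, each the only one of its group, and carry the strain label C57BL/6J. Adipogenesis was followed in immortalized white preadipocytes (3T3-L1) and in brown preadipocytes, each before induction (0h), after 1h, 2h and 4h, and on day 2 and day 7. The other 2 libraries are from brown adipose tissue (BAT) of the adult and of the embryo. The brown cells came from the interscapular BAT of newborn pups whose Pparg alleles are floxed on both copies, and carry SV40T as the immortalizing gene. No Cre is named in the labels, so all brown cultures share the floxed alleles and none is labelled as deleted. Cells plated 4 days earlier were induced at confluence with dexamethasone (1 µM, a glucocorticoid), IBMX (0.5 mM, which raises cAMP), indomethacin (0.125 mM), T3 (1 nM, a thyroid hormone) and insulin (0.02 µM). The labels attach this text to every sample, the tissues and 3T3-L1 included, and state that the late brown libraries (day 2, day 7) duplicate samples deposited elsewhere.

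The labels were set against marker genes. Summed over Adipoq, Plin1, Fabp4, Cidec and Lpl, adipocyte markers lay between 39.5 and 328 RPKM from 0h to 4h and between 1208 and 14573 RPKM at day 2 and day 7. Brown adipocyte markers were low in culture: Ucp1 was at 1.07 RPKM and Cidea at 6.65 RPKM in brown cells at day 7, against a sum of 2179 RPKM in adult and 2870 RPKM in embryonic BAT. Endothelial markers summed to at most 0.83 RPKM in any culture, but to 134 RPKM in adult and 255 RPKM in embryonic BAT. Sequencing depth was 39.5 to 80.9 M reads in culture, recovered from the smallest RPKM steps, and 4.02 and 17.5 M deposited reads in adult and embryonic BAT. In both lines the late culture files (day 2, day 7) carry another style of header than the early ones (0h to 4h), so file handling and time cannot be told apart in a comparison of late with early.

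Promoters are shown for Itga5, Itgav, Itgb1 and Itgb5, the most abundant integrin chains at 0h, and for Lamb3, a laminin chain that was nearly silent until day 7. Those integrin chains fell by day 7, as described below, but were picked by their 0h level. Each sequence runs from 250 bases before to 50 bases after the annotated transcription start, in RefSeq's GRCm38.p6 annotation, 5′ to 3′ on the gene's strand. Capitals mark GGGCGG or its reverse complement CCGCCC, the GC box.
Itga5, chr15:103366742-103367041, minus strand: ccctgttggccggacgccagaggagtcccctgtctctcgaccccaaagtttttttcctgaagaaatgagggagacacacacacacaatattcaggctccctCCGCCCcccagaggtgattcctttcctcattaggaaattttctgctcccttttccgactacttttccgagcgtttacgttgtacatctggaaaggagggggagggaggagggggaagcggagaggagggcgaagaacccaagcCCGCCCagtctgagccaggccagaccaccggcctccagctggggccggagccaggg
Itgav, chr2:83724147-83724446, plus strand: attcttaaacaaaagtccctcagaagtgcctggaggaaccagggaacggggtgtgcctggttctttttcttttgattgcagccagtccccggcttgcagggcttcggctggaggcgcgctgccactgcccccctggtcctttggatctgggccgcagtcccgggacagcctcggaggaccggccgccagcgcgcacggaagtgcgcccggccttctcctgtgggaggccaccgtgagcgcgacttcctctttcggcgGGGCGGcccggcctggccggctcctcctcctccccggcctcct
Itgb1, chr8:128685404-128685703, plus strand: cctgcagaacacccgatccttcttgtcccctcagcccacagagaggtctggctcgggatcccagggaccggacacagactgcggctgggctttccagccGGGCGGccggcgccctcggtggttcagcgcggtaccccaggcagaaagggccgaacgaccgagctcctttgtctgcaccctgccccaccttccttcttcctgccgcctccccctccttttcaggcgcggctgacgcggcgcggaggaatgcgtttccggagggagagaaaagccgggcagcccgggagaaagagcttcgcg
Itgb5, chr16:33829415-33829714, plus strand: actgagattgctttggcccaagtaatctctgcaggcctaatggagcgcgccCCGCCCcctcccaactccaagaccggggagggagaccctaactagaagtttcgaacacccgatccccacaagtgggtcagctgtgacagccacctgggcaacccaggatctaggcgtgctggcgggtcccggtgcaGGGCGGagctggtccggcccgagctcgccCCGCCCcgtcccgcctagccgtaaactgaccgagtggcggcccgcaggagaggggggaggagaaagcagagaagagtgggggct
Lamb3, chr1:193301744-193302043, plus strand: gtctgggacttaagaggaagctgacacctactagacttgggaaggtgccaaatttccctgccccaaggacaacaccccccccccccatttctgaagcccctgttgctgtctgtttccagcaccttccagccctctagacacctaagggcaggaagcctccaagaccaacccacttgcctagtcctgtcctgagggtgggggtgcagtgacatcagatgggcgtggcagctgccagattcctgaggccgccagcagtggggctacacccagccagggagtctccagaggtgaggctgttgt

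The promoters of Itga5, Itgav, Itgb1 and Itgb5 held 2, 1, 1 and 3 such sites and had a GC content of 58.7%, 67.3%, 67.3% and 65.7%. The Lamb3 window held 0 sites at 59.3% GC, and the median over all 32851 promoters was 52.7%. A promoter was found for 25 of the 39 members, and 12 of the 25 contained GGGCGG on either strand, a motif present in 35.7% of all promoters. TGANTCA, an AP-1 type motif, occurred in 3 of the 25 (Itga3, Itga9 and Itgax) and in 7.81% of all promoters. TGACGTCA, the direct repeat of AGGTCA with 1 base between, and TTGCGCAA occurred in 0 of the 25 and in 1.79%, 0.0396% and 0.183% of all promoters. Both strands were searched, no motif's letters are contained in another's, and the motif set was chosen after matches had been seen. A member was counted if any of its promoter windows matched, whereas the shares over all promoters count single windows. The 2 measures are therefore not alike. These matches are descriptions of letters, not of factor binding.

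**Figure D1:**
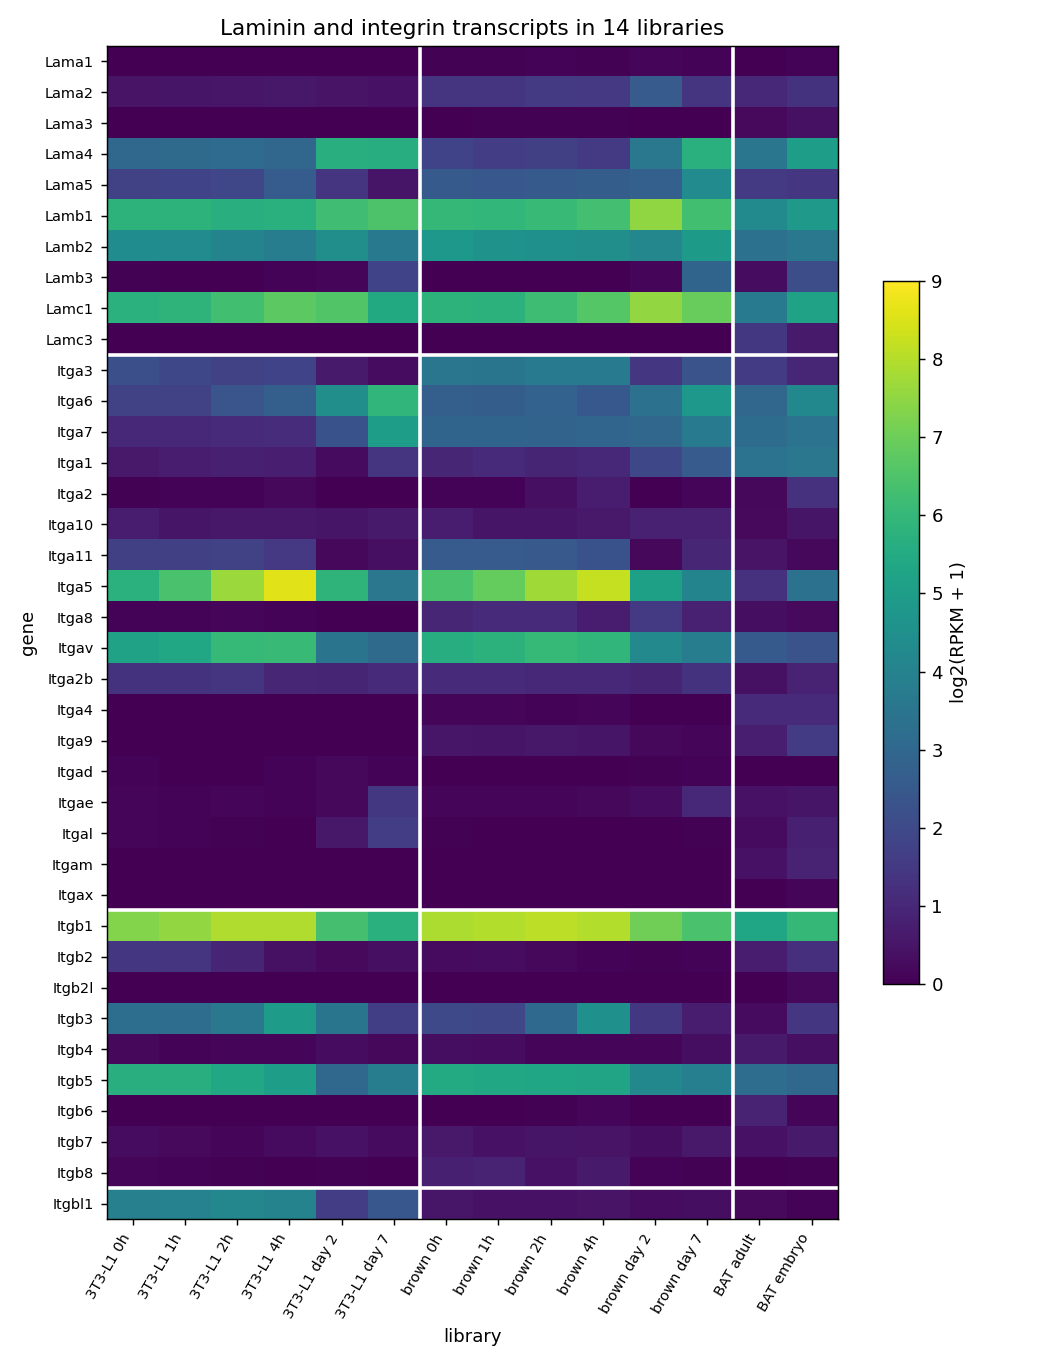
Level of 38 members in all 14 libraries. Rows are genes grouped as laminins, integrin alpha chains, integrin beta chains and Itgbl1; columns are libraries, 1 per group; colour is log2(RPKM + 1). Itgb1 and Lamc1 were high throughout, Itga5 peaked at 4h in both lines, and Itga6, Itga7, Lama4 and Lamb3 were highest in the late cultures.

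Changes over time were tested with limma on log2(RPKM + 1) across both lines, so n = 2 libraries per time and the disagreement between the lines is the error. Separate cultures beyond the 2 lines are not labelled, so a p-value here measures the spread between 1 library of each line. Of the 39 members, 23 reached the filter of 1 RPKM in at least 2 culture libraries. Itgae and Lamb3 reached it only through day 7, so a difference there was built in, and counts are also given for the other 21. Itga11 and Itgb2 reached it only through libraries of 0h to 4h, so a fall after those times was built in too. Itga1 reached it only with late libraries, as brown 1h was its only early library at 1 RPKM, which favoured a late rise. Itga11, Itgb2 and Itga1 remain in all counts. Itga11 is among the members called lower at day 2 and day 7, and Itga1 among those called higher at day 7. At an adjusted p under 0.05, 0 of the 23 were called by limma at 1h (0.0402% of all 12428 genes tested) and 0 at 2h (1.42% of all genes: 0.507% higher, 0.909% lower). At an unadjusted p under 0.05 the counts were 0 and 2, and edgeR on recovered reads called 0 at both times. At 4h 2 members rose and 0 fell, where 2.39% of all genes were called, 0.933% higher and 1.46% lower. At day 2 1 member rose and 5 fell, where 17.7% of all genes were called, 6.18% higher and 11.5% lower. At day 7 6 were higher and 7 lower, 56.5% of the members tested. Of all genes 40.6% were called, 14.9% higher and 25.8% lower. Of the other 21 members 4 rose and 7 fell (52.4%), with Itga1 among these rises and Itga11 among these falls. That share is therefore not free of the filter. Between day 2 and day 7 2 were higher and 2 lower, where 18.9% of all genes were called (7.6% higher, 11.3% lower). Those 2 higher members were Lamb3 and Itgae, and of the other 21 0 rose and 2 fell (9.52%). The median log2 difference over the members was -0.03 at day 7 and that over all genes -0.19. In bulk RNA, fewer cells of a type and less RNA per cell cannot be told apart.

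**Figure D2:**
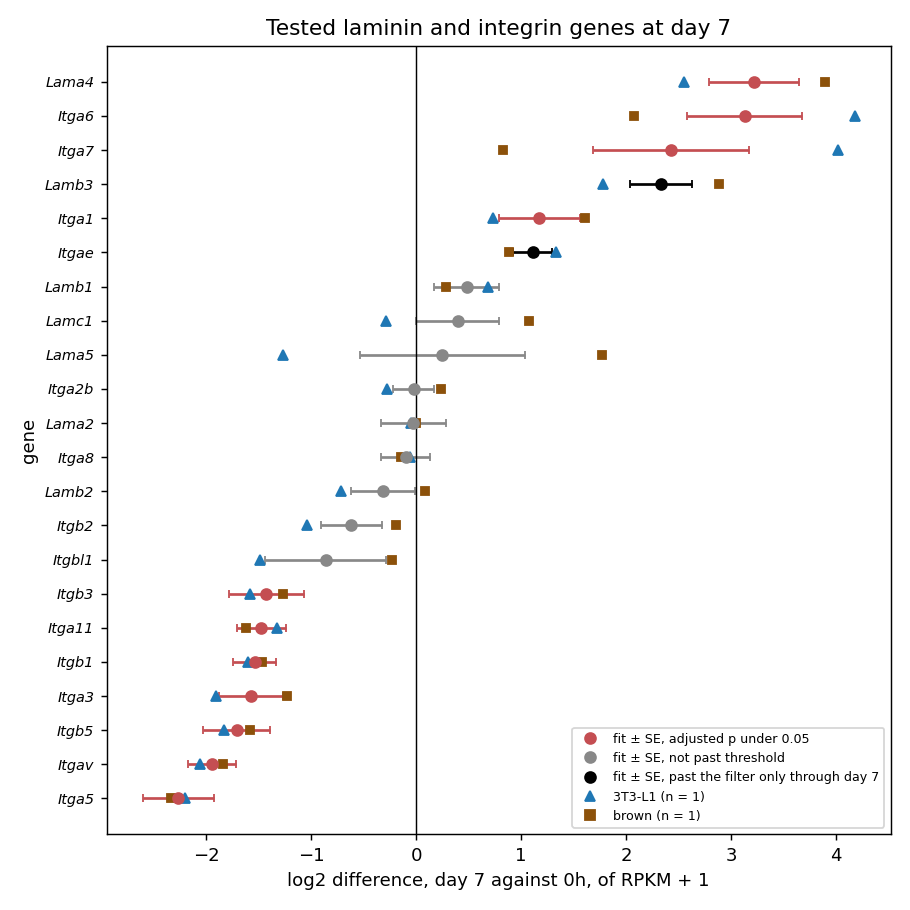
Difference between day 7 and 0h for 22 of the 23 members tested. Circles are the limma estimate with its SE, red where the adjusted p is under 0.05 and black for Lamb3 and Itgae, which passed the filter only through day 7; triangles and squares are the single 3T3-L1 and brown libraries; the x axis is the log2 difference of RPKM + 1. Lama4 (3.22) and Itga6 (3.13) stand at the top, Itga5 (-2.27) at the bottom, and Lama5 has its 2 lines on opposite sides of 0. Itga11, in red, and Itgb2 passed the filter only through libraries of 0h to 4h. Itga1, also in red, passed it only with late libraries.

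Among the laminin alpha chains, Lama4 rose across the 2 lines. Lama4, found in basement membranes of adipocytes, muscle and vessels, stood at 7.28, 7.63, 7.87 and 6.81 RPKM in 3T3-L1 at 0h, 1h, 2h and 4h, then at 50.18 on day 2 and 47.61 on day 7. In brown cells Lama4 was at 2.50, 2.10, 2.29 and 1.92 RPKM over the same early times, then at 11.06 on day 2 and 50.94 on day 7. Every late library was above every early one, and 3T3-L1 was near its day 7 level on day 2 while brown cells were not. The log2 difference of Lama4 was 2.21 ± 0.43 (SE) at day 2 (limma, adjusted p = 0.0140) and 3.22 ± 0.43 at day 7 (adjusted p = 0.00124). The day 2 call of Lama4 was lost without 3T3-L1 0h (adjusted p = 0.0927), 3T3-L1 day 2 (0.0628) or brown 0h (0.0897); between day 2 and day 7 the log2 difference was 1.02 (adjusted p = 0.140).

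Lama5, the alpha chain of laminins found widely in adult epithelial and vascular basement membranes, moved apart in the 2 lines. Lama5 was at 2.41, 2.50, 2.74, 5.11, 1.56 and 0.41 RPKM in 3T3-L1 from 0h to day 7. In brown cells Lama5 was at 4.90, 4.47, 4.80, 5.26, 5.77 and 19.16 RPKM. The day 7 library was the lowest of the 6 in 3T3-L1 and the highest in brown cells, at 0.170 and 3.91 times the 0h level, and with 1 library per line and time this contrast between lines has no test. Lama5 was the only member of 15 that could qualify to move at least 2-fold in opposite directions, as did 0.708% of 10454 genes. Lama2, the alpha chain of muscle laminin, lay at 0.35 to 0.49 RPKM in 3T3-L1 and at 1.61 to 1.89 RPKM in brown cells except for 4.98 RPKM on day 2. Lama1, typical of early embryonic basement membranes, was listed at 0.00 RPKM in every 3T3-L1 library and reached at most 0.08 RPKM in brown cells. Lama3, an epithelial chain, did not exceed 0.04 RPKM in culture.

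The beta chain Lamb1 and the gamma chain Lamc1, which occur in most laminin trimers, were the 2 laminin transcripts with the highest level at every time in brown cells and from 0h to day 2 in 3T3-L1. Lamb1 was at 55.63, 55.02, 50.29, 50.83, 74.65 and 89.65 RPKM in 3T3-L1 and at 63.42, 61.48, 66.44, 79.20, 179.38 and 77.20 RPKM in brown cells. Lamc1 was at 52.52, 56.20, 75.73, 104.46, 93.87 and 42.95 RPKM in 3T3-L1 and at 55.79, 53.52, 73.41, 98.82, 185.53 and 118.26 RPKM in brown cells. Both chains had their highest brown level on day 2, whereas in 3T3-L1 Lamc1 was highest at 4h and Lamb1 on day 7. Neither passed the test at any time: the log2 difference was 0.95 for Lamb1 at day 2 (adjusted p = 0.072) and 1.27 for Lamc1 at day 2 (adjusted p = 0.063). When 0h to 4h were fitted alone, a fit that called 19% of all genes at 2h and 29.7% at 4h against 3 and 5 of 20 members (15% and 25%), Lamc1 was called at 2h (0.45, adjusted p = 0.0165) and at 4h (0.90, adjusted p = 0.00209).

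Lamb2, the beta chain of synaptic and glomerular laminins, was at 19.76, 19.28, 15.89, 12.62, 20.94 and 11.60 RPKM in 3T3-L1 and at 26.96, 23.56, 22.07, 20.85, 17.02 and 28.70 RPKM in brown cells. Its early levels stepped down in both lines, and in the fit of 0h to 4h alone the 4h difference was -0.48 (adjusted p = 0.0246). That fit called 29.7% of all genes at 4h, and over all times Lamb2 was not called. Lamc3 did not exceed 0.02 RPKM in culture.

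Lamb3 was nearly silent until day 7. Lamb3, the epithelial beta chain, was at 0.01 to 0.08 RPKM in 3T3-L1 up to day 2 and at 2.53 RPKM on day 7. In brown cells Lamb3 was at 0.00 to 0.09 RPKM up to day 2 and at 6.46 RPKM on day 7. Both day 7 cultures stood above all other cultures, by a log2 difference from 0h of 2.33 on the RPKM + 1 scale, 5.12 with a pseudocount of 0.1 and 8.13 with edgeR. Lamb3 entered the fit only through day 7, so these values are a description and no p is given. Lama3, the alpha chain of epithelial laminin, was at 0.00 RPKM in both day 7 cultures. The gene next to Lamb3 in the RefSeq order is G0s2, an inhibitor of adipose lipase, which stood at 0.18 RPKM at 0h and 297 RPKM on day 7 in 3T3-L1, and at 0.81 and 299.5 RPKM in brown cells. Reads shared across this boundary were not tested.

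**Figure D3:**
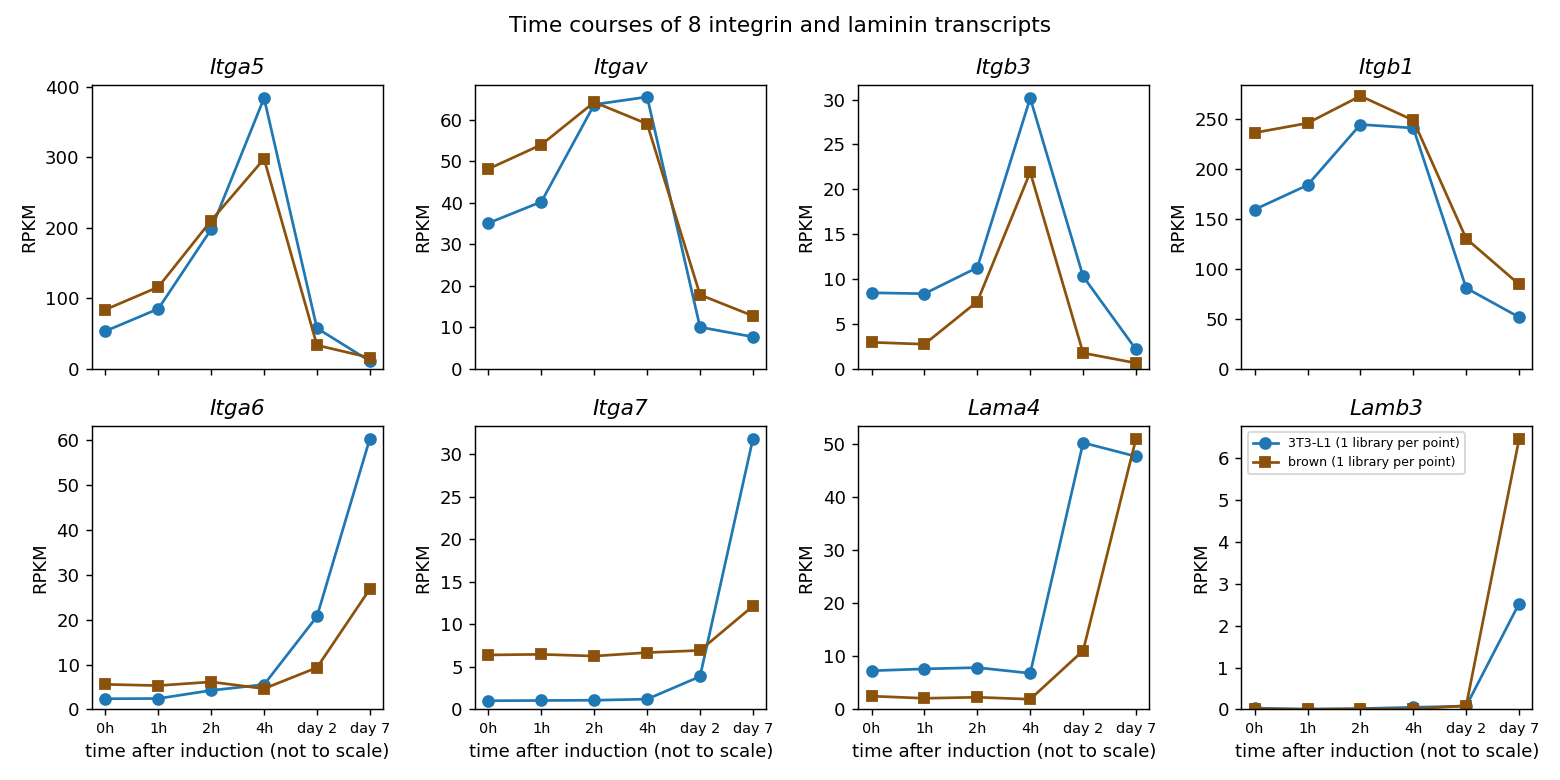
RPKM of 8 members at 6 times in 3T3-L1 (circles) and brown cells (squares), 1 library per point; the time axis is not to scale. Itga5, Itgav, Itgb3 and Itgb1 (top) peaked at 2h or 4h and were lowest on day 7, while Itga6, Itga7, Lama4 and Lamb3 (bottom) were highest on day 2 or day 7.

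The laminin-binding alpha chains did not move together: Itga6 and Itga7 rose and Itga3 fell. Itga6, which pairs with Itgb1 or with Itgb4 of hemidesmosomes, was at 2.38, 2.43, 4.24, 5.53, 20.69 and 60.26 RPKM in 3T3-L1. In brown cells Itga6 was at 5.58, 5.31, 6.13, 4.62, 9.31 and 26.80 RPKM. The late libraries were above all early ones in both lines. Day 7 was 25.3-fold over 0h in 3T3-L1 and 4.80-fold in brown cells, and the log2 difference was 3.13 ± 0.55 (limma, adjusted p = 0.00380). At day 2 the difference of 1.67 did not pass (adjusted p = 0.075).

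Itga7, the laminin receptor of skeletal muscle, was at 1.02, 1.05, 1.08, 1.21, 3.87 and 31.79 RPKM in 3T3-L1. In brown cells Itga7 was at 6.40, 6.47, 6.27, 6.68, 6.93 and 12.14 RPKM. Day 7 was the highest library in each line, but the rise was 31.2-fold in 3T3-L1 and 1.90-fold in brown cells. The log2 difference was 2.42 ± 0.74 (limma, adjusted p = 0.0341); it was 3.77 with edgeR, 0.96 without 3T3-L1 day 7 (adjusted p = 0.0854) and 3.89 without brown day 7. The call was also lost without 3T3-L1 0h (0.182), brown 0h (0.0778), 3T3-L1 4h (0.0511) or brown 4h (0.0510). Exons of Itga7 share 9 bases with Mettl7b on the opposite strand in the GENCODE annotation of GRCm38, and Mettl7b stood at 0.24 RPKM at 0h and 38.8 RPKM on day 7 in 3T3-L1, and at 0.04 and 2.17 RPKM in brown cells. The part of shared reads was not tested.

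Itga3, which binds epithelial-type laminins, was at 3.59, 2.87, 2.32, 2.53, 0.57 and 0.22 RPKM in 3T3-L1 and at 10.71, 10.36, 11.99, 12.41, 1.66 and 3.97 RPKM in brown cells. Early and late libraries did not overlap within either line. The log2 difference was -1.84 ± 0.31 at day 2 (limma, adjusted p = 0.00783) and -1.57 ± 0.31 at day 7 (adjusted p = 0.00583), the latter -2.47 with a pseudocount of 0.1. The day 2 call was lost without 3T3-L1 0h (0.0758) or brown 0h (0.0517).

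The fibronectin receptor chain Itga5 had the widest range of all alpha chains in culture. Itga5 was at 53.34, 84.96, 197.89, 384.20, 57.47 and 10.83 RPKM in 3T3-L1, and at 83.81, 115.94, 210.35, 297.90, 33.30 and 15.74 RPKM in brown cells. Each early time was above the one before it in both lines, and day 7 was the lowest library in both. At 4h the level was 7.20-fold that of 0h in 3T3-L1 and 3.55-fold in brown cells, and the log2 difference was 2.32 ± 0.34 (limma, adjusted p = 0.0236). At day 7 Itga5 was at 0.203 and 0.188 times its 0h level, a log2 difference of -2.27 ± 0.34 (adjusted p = 0.00195). Between day 2 and day 7 the difference was -1.67 ± 0.34 (adjusted p = 0.0158), a call lost without 3T3-L1 day 2 (0.0675) or 3T3-L1 day 7 (0.0599).

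The 4h call of Itga5 was lost when any of the 8 libraries of 0h to 4h was left out (adjusted p from 0.0555 to 0.281). The 2h difference of 1.59 missed the threshold (adjusted p = 0.062). In the fit of 0h to 4h alone, which has no late libraries in its error, Itga5 was called at 2h (adjusted p = 0.00983) and at 4h (adjusted p = 0.00280). That fit called 19% of all genes at 2h and 29.7% at 4h.

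Itgav, the alpha chain of the vitronectin receptors, was at 35.08, 40.21, 63.64, 65.47, 10.01 and 7.67 RPKM in 3T3-L1 and at 48.14, 53.96, 64.20, 58.98, 17.80 and 12.73 RPKM in brown cells. It was higher at each of 1h, 2h and 4h than at 0h in both lines and lower on day 2 and day 7. The log2 difference was -1.55 ± 0.23 at day 2 (limma, adjusted p = 0.00513) and -1.95 ± 0.23 at day 7 (adjusted p = 0.000803). The day 2 call was lost without brown 0h (0.0534). Itgav was called as higher at 2h (0.62, adjusted p = 0.0415) and 4h (0.58, adjusted p = 0.0369) only in the fit of 0h to 4h alone. That fit called 19% of all genes at 2h and 29.7% at 4h.

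The other RGD-binding chains were low. Itga8, expressed in mesenchyme and smooth muscle, did not exceed 0.08 RPKM in 3T3-L1 and lay between 0.64 and 1.87 RPKM in brown cells. Itga2b, the platelet chain, lay between 0.90 and 1.58 RPKM in culture. Neither was called at any time.

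Of the collagen-binding chains, Itga11 fell and Itga1 rose. Itga11, a collagen receptor of fibroblasts, was at 2.27, 2.29, 2.39, 1.8, 0.13 and 0.30 RPKM in 3T3-L1 and at 5.01, 4.98, 4.74, 3.87, 0.14 and 0.95 RPKM in brown cells. The log2 difference was -1.97 ± 0.23 at day 2 and -1.48 ± 0.23 at day 7. With edgeR the values were -4.59 and -2.46. Itga11 reached the filter only through the libraries of 0h to 4h, so a fall was built in. These values are therefore a description and no p is given. Itga1, which binds basement membrane collagen IV, was at 0.54, 0.59, 0.72, 0.67, 0.21 and 1.56 RPKM in 3T3-L1 and at 0.97, 1.11, 0.92, 0.98, 2.89 and 5.01 RPKM in brown cells. Day 7 was its highest library in both lines, while its day 2 library was the lowest in 3T3-L1 and above every early one in brown cells. Of the libraries of 0h to 4h, only brown 1h reached 1 RPKM, so Itga1 passed the filter only with late libraries. This favoured a rise at late times, so its day 7 values are a description. The log2 difference at day 7 was 1.17 ± 0.38 with limma, which called it, and 2.13 with edgeR, which did not. That call was lost without any of the 8 libraries of 0h to 4h or without brown day 7 (adjusted p from 0.0551 to 0.211). Itga2 did not exceed 0.60 RPKM in culture, and Itga10, a cartilage collagen receptor, lay between 0.42 and 0.78 RPKM.

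The remaining alpha chains were near silence in culture, with 2 exceptions at day 7. Itgae, the alpha chain that lets intraepithelial T cells bind E-cadherin, was at 0.06 to 0.13 RPKM in 3T3-L1 up to day 2 and at 1.74 RPKM on day 7. In brown cells Itgae was at 0.08 to 0.22 RPKM up to day 2 and at 1.07 RPKM on day 7. Itgae too entered the fit only through day 7, so its log2 difference from 0h (1.11, or 3.96 with edgeR) is a description. Itgal, the alpha chain of the lymphocyte integrin LFA-1, was at 0.50 RPKM on day 2 and 2.14 RPKM on day 7 in 3T3-L1 alone. In brown cells Itgal did not exceed 0.04 RPKM, so it did not reach the filter.

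Leukocyte markers were low in the same libraries. The pan-leukocyte gene Ptprc was at 0.00 RPKM in both day 7 cultures, and the summed leukocyte list lay between 0.10 and 2.13 RPKM over the late cultures, of which S100a8 made up 1.07 RPKM in 3T3-L1 at day 7. Itgb7, the partner of Itgae, lay between 0.12 and 0.55 RPKM in culture, and Itgb2, the partner of Itgal, was at 0.29 RPKM in 3T3-L1 at day 7. Itgad did not exceed 0.14 RPKM, and Itgam and Itgax, the myeloid chains, did not exceed 0.02 RPKM in culture. Itga4, a leukocyte and neural crest chain, was listed at 0.00 RPKM in 3T3-L1 and at up to 0.09 RPKM in brown cells. Itga9 did not exceed 0.01 RPKM in 3T3-L1 and went from 0.47 RPKM at 0h to 0.09 RPKM on day 7 in brown cells.

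Of the 4 beta chains tested, 3 were called lower at day 7 (75%, against 25.8% of all genes): Itgb1, Itgb5 and Itgb3. Itgb1, the common partner of most alpha chains, was at 159.22, 183.64, 244.29, 240.79, 80.70 and 51.55 RPKM in 3T3-L1 and at 236.05, 245.65, 272.82, 248.53, 130.17 and 84.39 RPKM in brown cells. Early and late libraries did not overlap, with a log2 difference of -0.91 ± 0.20 at day 2 (limma, adjusted p = 0.0224) and -1.54 ± 0.20 at day 7 (adjusted p = 0.00122). The day 2 call was lost without 3T3-L1 0h (0.106), 3T3-L1 day 2 (0.0748) or brown 0h (0.155). Itgb1 nevertheless made up between 72.6% and 86.9% of the summed beta-chain RPKM in every library, tissues included.

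Itgb5, an Itgav partner that binds vitronectin, was at 49.55, 50.54, 40.42, 30.86, 7.20 and 13.21 RPKM in 3T3-L1 and at 43.93, 41.41, 39.17, 37.43, 17.48 and 13.95 RPKM in brown cells. Its late libraries were all below its early ones, with a log2 difference of -1.95 ± 0.32 at day 2 (limma, adjusted p = 0.00721) and -1.71 ± 0.32 at day 7 (adjusted p = 0.00491). The day 2 call was lost without 3T3-L1 0h (0.0731).

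Itgb3, the other main Itgav partner and the platelet beta chain, peaked at 4h. Itgb3 was at 8.46, 8.36, 11.27, 30.15, 10.29 and 2.15 RPKM in 3T3-L1 and at 2.94, 2.73, 7.48, 21.90, 1.75 and 0.63 RPKM in brown cells. The 4h library was the highest and the day 7 library the lowest in both lines. The log2 difference was 2.13 ± 0.36 at 4h (limma, adjusted p = 0.0318), -1.43 ± 0.36 at day 7 (adjusted p = 0.0158) and -1.30 ± 0.36 between day 2 and day 7 (adjusted p = 0.0426). The 4h call was lost without any of the 8 libraries of 0h to 4h (log2 difference between 1.74 and 2.52). In the limma fit of those times alone, which called 29.7% of all genes at 4h, Itgb3 was called (adjusted p = 0.00406). The day 7 call was lost without 3T3-L1 0h (0.0919), 3T3-L1 day 7 (0.0606) or brown 0h (0.0654). The call between day 2 and day 7 was lost without the 0h, 1h, 2h or day 7 library of either line or without 3T3-L1 day 2 (adjusted p from 0.0565 to 0.203), the last with a difference of -0.73, and without the filter on low values (0.0841).

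The remaining beta chains were low. Itgb2, the beta chain of leukocyte integrins, went from 1.66 RPKM at 0h to 0.33 at 4h and 0.29 on day 7 in 3T3-L1. In brown cells it went from 0.21 to 0.05 and 0.06 RPKM. It was not called by limma (day 7 log2 difference -0.62, adjusted p = 0.126), whereas edgeR on recovered reads called it at 4h, day 2 and day 7. Itgb2 reached the filter only through 3T3-L1 at 0h and 1h, so a fall from 0h was built in and these edgeR calls are a description. Itgb4, the hemidesmosome partner of Itga6, lay between 0.07 and 0.26 RPKM in culture, so Itga6 had Itgb1 as its only abundant partner transcript. Itgb6 and Itgb8, which pair with Itgav to activate TGF-beta, did not exceed 0.09 RPKM, apart from Itgb8 at 0.36 to 0.81 RPKM in brown cells from 0h to 4h. Itgb2l was at 0.00 RPKM in every culture. Itgbl1 was at 14.17, 15.04, 16.76, 15.35, 2.10 and 4.39 RPKM in 3T3-L1 and between 0.22 and 0.47 RPKM in brown cells. Its late 3T3-L1 libraries were below the early ones, and no time was called (day 2 log2 difference -1.28, adjusted p = 0.169).

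**Figure D4:**
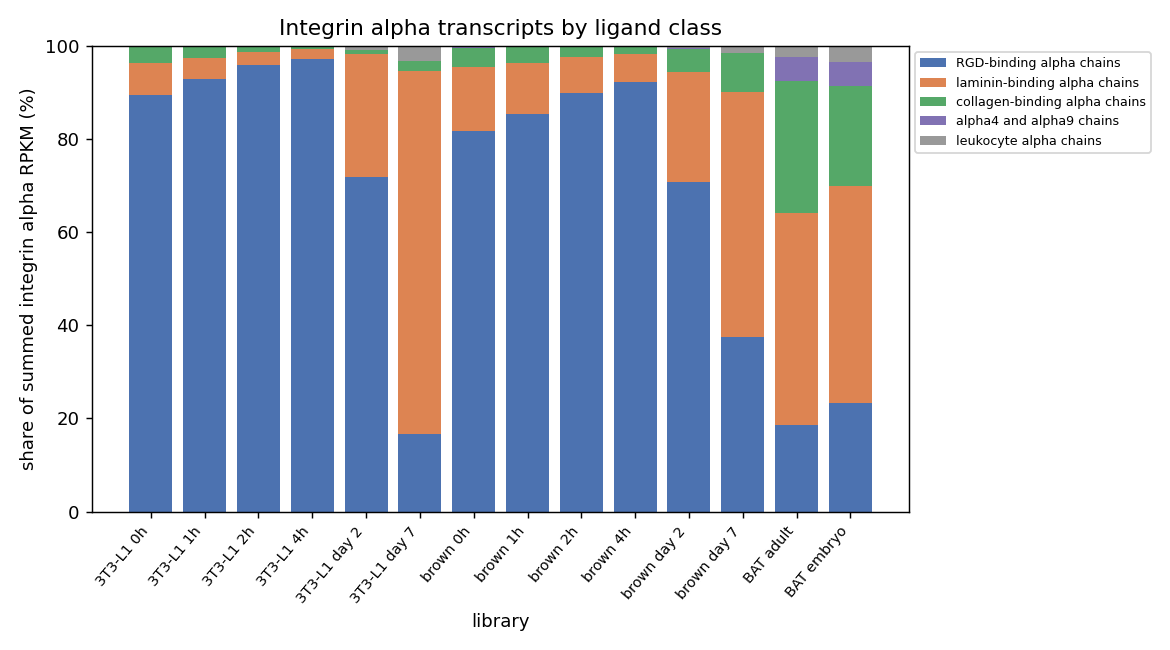
Share of summed integrin alpha RPKM taken by each ligand class in each of 14 libraries; bars are stacked to 100% and each is 1 library. RGD-binding chains went from 97.3% at 4h to 16.6% at day 7 in 3T3-L1 and from 92.2% to 37.6% in brown cells, while laminin-binding chains reached 78.0% and 52.5%.

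The make-up of the alpha-chain pool changed accordingly. RGD-binding chains held 89.4% of the summed alpha RPKM at 0h, 97.3% at 4h, 71.9% on day 2 and 16.6% on day 7 in 3T3-L1. In brown cells the corresponding shares were 81.7%, 92.2%, 70.9% and 37.6%. Laminin-binding chains held 6.94% at 0h and 78.0% on day 7 in 3T3-L1, and 13.8% and 52.5% in brown cells. The largest class thus differed between 0h and day 7 in both lines, with 1 library behind each share. The summed alpha RPKM itself was 101 at 0h, 463 at 4h and 118 on day 7 in 3T3-L1, and 164, 389 and 81.8 in brown cells.

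The balance of laminin chains also differed between 0h and day 7. The summed beta chains were 7.47 times the summed alpha chains in 3T3-L1 at 0h, 1.83 times on day 2 and 2.15 times on day 7. In brown cells they were 9.97, 8.98 and 1.57 times the alpha chains, so there the day 2 ratio was close to that of 0h. Lama4 made up 72.1% of laminin alpha RPKM at 0h and 98.4% on day 7 in 3T3-L1. In brown cells Lama4 went from 27.6% to 71.0%, and Lama5 from 54.0% to 26.7%.

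Genes that work with these receptors were taken as 3 lists. Of 27 focal adhesion genes, which link integrins to actin, 26 were tested, and at day 7 1 rose and 17 fell, 3.85% and 65.4% of them, where 14.9% of all genes were called as higher and 25.8% as lower. The median log2 difference was -0.86 against -0.19 over all genes. Actn1 (-3.06), Flna (-2.72), Zyx (-2.59) and Parvb (-2.43) fell the most, and the leukocyte kindlin Fermt3 (0.65) rose. Among the early libraries only brown 4h had Fermt3 at 1 RPKM or more. Fermt3 thus passed the filter only with late libraries, which favoured a rise. Of 16 ligands other than laminin, 13 were tested, and at day 7 9 fell (69.2%, against 25.8% of all genes) and 0 rose (against 14.9%), with a median of -2.55. Among them the RGD ligand Spp1 (osteopontin) fell by 5.40, and Fn1, the fibronectin bound by Itga5, stood at 551 RPKM at 0h and 80.2 RPKM on day 7 in 3T3-L1, and at 692 and 209 RPKM in brown cells.

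The basement membrane partners of laminin were called in both directions at day 7, at a share below that of all genes. Of 21 genes 15 were tested, and at day 2 4 rose (26.7%, against 6.18% of all genes) and 0 fell (against 11.5%): the collagen IV chains Col4a1 (log2 difference 1.77) and Col4a2 (1.61), the laminin-binding linker Nid2 (2.57) and Col15a1 (3.92). At day 7 3 rose (Col15a1 4.80, Smoc1 3.32 and the laminin receptor Dag1 0.78) and 2 fell (Smoc2 -1.78 and the perlecan gene Hspg2 -0.60), 33.3% of the 15 against 40.6% of all genes. Smoc1 too passed the filter only with late libraries, as brown 4h was its only early library at 1 RPKM or more. Its rise was thus favoured by the filter. The list's median at day 7 was 0.04, against -0.19 over all genes. Preadipocyte and fibroblast markers (Pdgfra, Pdgfrb, Dlk1, Col1a1, Thy1) summed to 1026 to 1629 RPKM in the early and 335 to 725 RPKM in the late cultures. Col1a1 made up most of each early sum. Pdgfra was at 29.1, 50.1 and 19.8 RPKM at 0h, day 2 and day 7 in 3T3-L1. In brown cells Pdgfra was at 5.96, 27.2 and 10.0 RPKM. The other markers of this list were lower at day 7 than at 0h in both lines. Mural markers (Rgs5, Cspg4, Acta2, Myh11) summed to 510 to 1195 RPKM early and 3.47 to 148 RPKM late. The early sums were mainly Acta2, a stress-fibre actin that stood at 509 RPKM at 0h and 7.44 RPKM on day 7 in 3T3-L1. Myh11, a smooth muscle myosin of the same list, was at 0.10 and 3.94 RPKM in those libraries. The part of these cells in the falls above was not tested.

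The lines differed in a few members throughout. By the rule of at least 2-fold in the same direction at 5 or more of 6 times, with at least 2 RPKM in the higher library, Itga3 was higher in brown cells and Lama4 and Itgbl1 in 3T3-L1. These are 3 of 14 members that could qualify, and 10.2% of 10147 genes met the same rule, 6.83% higher in brown cells and 3.32% higher in 3T3-L1. Itgbl1 met it at all 6 times. With 1 line of each kind, a difference between white and brown preadipocytes and one between any 2 lines cannot be told apart, and no test was made. Lama4 was outside the rule at day 7, where it stood at 47.61 RPKM in 3T3-L1 and 50.94 RPKM in brown cells.

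**Figure D5:**
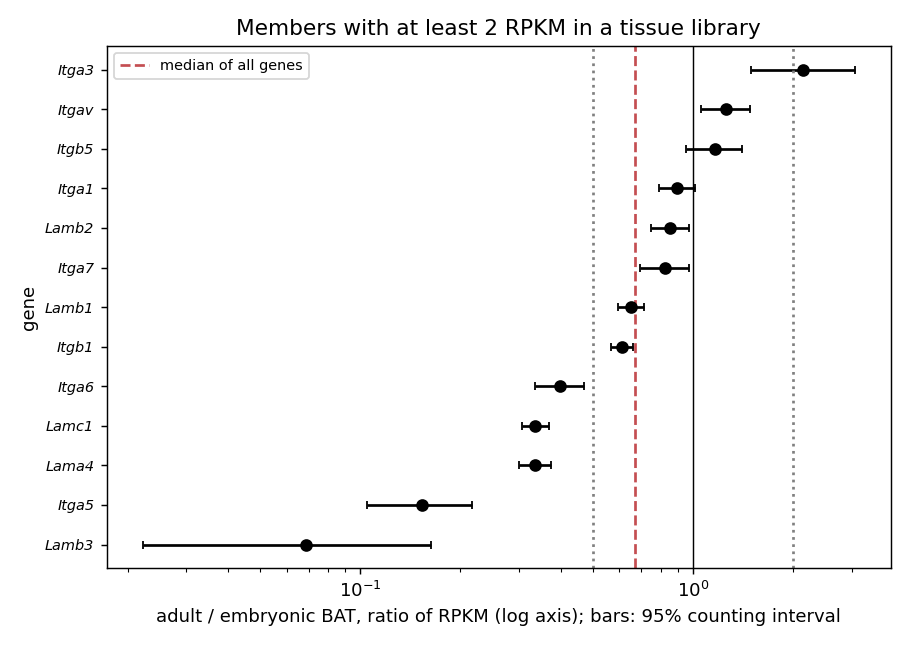
Ratio of adult to embryonic BAT for the 13 members with at least 2 RPKM in a tissue library. Points are ratios of RPKM on a log axis, bars are 95% exact counting intervals with 1 library per tissue, dotted lines mark 2-fold and the dashed line the median of all genes. Lamb3 and Itga5 lie far to the left (higher in embryo), Itga3 alone lies beyond 2-fold to the right.

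In BAT, 6 of 13 members that could qualify differed at least 2-fold between adult and embryo, where 40.1% of 10709 genes did, 34% higher in the embryo and 6.11% higher in the adult. Itga5 was at 1.41 RPKM in adult and 9.21 RPKM in embryonic BAT, 6.52-fold higher in the embryo. Lamb3 was at 0.23 and 3.35 RPKM (14.5-fold), on 5 adult and 255 embryonic reads. Lama4 stood at 10.7 and 31.9 RPKM and Lamc1 at 11.9 and 35.6 RPKM, each 2.98-fold higher in the embryo, and Itga6 at 6.89 and 17.3 RPKM (2.52-fold). Among the 13 members with at least 2 RPKM in a tissue, Itga3 alone was 2-fold higher in the adult, at 2.00 against 0.93 RPKM (2.15-fold, 95% interval 1.49 to 3.07 from 52 and 85 reads, counting error only). The median gene was 0.58 lower in the adult on the log2 scale. After scaling to remove this only Lamb3 and Itga5 remained 2-fold higher in the embryo, and Lama4 and Lamc1 fell just short of 2-fold. Itga3 and Lamc3 were then 2-fold higher in the adult. Below the 2 RPKM minimum, Lamc3 was 3.11-fold higher in the adult (55 and 62 reads) and Itgb6 9.21-fold (21 and 8 reads). Between adult and embryo the summed preadipocyte and fibroblast markers were at 21.1 and 353 RPKM and erythroid markers at 35.5 and 757 RPKM. Endothelial markers were at 134 and 255 RPKM and mural markers at 115 and 45.4 RPKM. The mural list was mixed: Rgs5 (91.5 and 11.2) and Myh11 (4.65 and 4.04) were higher in the adult. Acta2 (9.45 and 18.9) and Cspg4 (9.57 and 11.2) were higher in the embryo. The embryonic fibroblast sum was mainly Dlk1 (0.56 and 133) and Col1a1 (7.44 and 195), while Thy1 (3.56 and 3.32) was not higher there. The part of these cell types in the differences between the tissues was not tested.

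Some members stood higher in tissue than in any culture. Itga1 was at 9.84 RPKM in adult and 11.0 RPKM in embryonic BAT, 26.5% and 18.2% of the alpha-chain RPKM, against at most 5.01 RPKM in culture. Itga4 was at 1.16 and 1.17 RPKM, Itga9 at 0.69 and 1.95 RPKM and Lamc3 at 1.73 and 0.56 RPKM, where no culture of Itga4 or Lamc3 exceeded 0.09 RPKM. Itgam was at 0.36 and 0.80 RPKM. Itgb2, at 0.65 and 1.36 RPKM, was below its 1.66 RPKM in 3T3-L1 at 0h. Tissue and culture values were normalized separately, and the tissues also held, beside the endothelial and other markers above, macrophage markers (8.42 and 15.3), leukocyte markers (4.27 and 32.5), Schwann markers (22.9 and 41.2) and skeletal muscle markers (1097 and 391); their part in these levels was not tested.

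Several members abundant in culture also stood high in the tissues, but not all. The highest alpha chain in adult BAT was Itga1 (9.84 RPKM), which did not exceed 5.01 RPKM in culture. Itga5, at up to 384 RPKM in culture, was at 1.41 RPKM in adult BAT. Itgb1 was at 38.2 RPKM in adult and 62.3 RPKM in embryonic BAT, and Lamb1 at 18.5 and 28.4 RPKM. Lamb2 was at 9.47 and 11.1 RPKM, Itga7 at 8.09 and 9.82 RPKM, Itgb5 at 8.20 and 7.06 RPKM and Itgav at 4.90 and 3.91 RPKM, all within 2-fold of each other. Laminin-binding chains held 45.7% and 46.5% of the alpha-chain RPKM and were the largest class, as on day 7 of both cultures and not at 0h. Collagen-binding chains followed in the adult (28.3%, with RGD-binding chains at 18.6%), and RGD-binding chains in the embryo (23.4%, with collagen-binding chains at 21.5%). Lama4 made up 77.6% and 89.9% of laminin alpha RPKM. Lama2 stood at 1.04 and 1.49 RPKM, Lama5 at 1.87 and 1.71 RPKM, and Itgb3 at 0.19 and 1.69 RPKM on 6 and 183 reads. Lama1, Itgad, Itgax, Itgb2l and Itgb8 had 0 reads in the adult library, where 3 reads would correspond to 0.0589 to 0.214 RPKM.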

How the data were processed

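The authors deposited RPKM for the cultures, rounded to 2 decimals, per the file headers. For the tissues they deposited a read count beside the RPKM of every transcript, per the file headers. The submitters' processing notes mention CASAVA 1.8.2 and mm9 but assign them no role. Aligner, counting program and strand setting: not given in the sources used here. Reads that overlapping or antisense genes share therefore could not be assigned. Exons of 11 members overlap another gene in the GENCODE annotation. Each file lists 29082 transcripts of 22836 symbols. Depth was recovered from the RPKM steps of low values, 100% of which were whole reads within 0.2 of a read.

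Time differences were fitted with limma 3.58.1 in R 4.3.3 (empirical Bayes with trend) on log2(RPKM + 1), with time and cell line as additive terms over the 12 culture libraries. The filter was 1 RPKM in at least 2 libraries, p-values were adjusted by Benjamini-Hochberg over all 12428 genes in each contrast, and a call is an adjusted p under 0.05. A fold change on this scale understates the change of low genes. On simulated data for day 7 against 0h with 200 of 12428 genes changed, 85% were recovered at a log2 change of 2 and 95% at 4, with 7.69% false among the calls. The changed genes were drawn from those with higher levels and moved equally in both lines. Far fewer genes changed than the 40.6% called in the real data at day 7. The rates were not measured for low members or for members whose lines disagreed. Differences between lines and between tissues have 1 library a side and are described by fold. Tissue ratios carry 95% exact counting intervals, which cover counting error only, and were formed only where both tissues had reads. For members with 0 reads the level that 3 reads would give is stated instead. edgeR 4.0.16 was run on recovered reads as an alternative. Members, companion lists and rules were chosen with earlier results of these data known. Members were named with full values where they passed a threshold or rule, or were among the 3 most abundant of their class. Promoters come from RefSeq's GRCm38.p6 table, which is not the submitters' build. The values of 1 member are not reported here.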

Additional observations from a re-analysis of the deposited data

Results flagged for a closer look

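Lama5 went in opposite directions in the 2 lines: its day 7 level was 0.170 times the 0h level in 3T3-L1 and 3.91 times in brown cells. It stood out because the single library of each line moved the other way by more than 2-fold. The difference was not tested, since each line has 1 library at each time.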

How the results depend on the processing

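None of the 25 calls reversed under any alternative run, but much of this was fixed beforehand. The 25 include calls of Lamb3, Itgae and Itga11, whose direction the filter built in, and of Itga1, whose rise it favoured. Leaving out a library of a time outside the comparison left the estimate unchanged. Fitting without a cell line term left 0 members called at 4h, 2 at day 2, 8 at day 7 and 2 between day 2 and day 7, and ended 13 of the 25 calls. Without the filter 0 were called at 4h. Fitting 0h to 4h alone, without the late libraries in its error, called 3 of 20 members at 2h and 5 at 4h (15% and 25%, against 19% and 29.7% of all genes). Leaving out 1 library at a time gave 0 to 1 calls at 2h, 0 to 2 at 4h, 2 to 9 at day 2, 10 to 13 at day 7 and 3 to 6 between day 2 and day 7. The day 7 calls of Lama4, Itga3, Itga6, Itga11, Itga5, Itgav, Itgb1 and Itgb5 were kept under every such omission. For Lamb3 and Itgae, which miss the filter without a day 7 library, omission says nothing. Itga11 reached the filter only through 0h to 4h, so its fall was built in whichever library was left out. Without a cell line term the day 7 calls of Itga3 and Itga11 were lost. Dropping the filter ended those of Itga7 at day 7 (adjusted p = 0.0727) and of Itga1 at day 7 (0.0804) and of Itgb3 between day 2 and day 7 (0.0841), a pseudocount of 0.1 that of Itga1 (0.0643), and edgeR those of Itga1 (0.0590) and of Itgb1 at day 2 (0.0518). edgeR called 0, 0, 3, 6, 13 and 5 members at 1h, 2h, 4h, day 2, day 7 and between day 2 and day 7, and 4899 of 12421 genes at day 7. Its counts at 4h, day 2 and day 7 include Itgb2, and those at day 2 and day 7 Itga11, whose falls the filter built in. Requiring all 6 times left 1 member higher in a line and a 1.5-fold rule gave 6. Between the tissues a 3-fold rule gave 2 members and a minimum of 1 RPKM gave 11. Apart from the filter, the cause of these moves was not tested. With 4.02 M deposited reads the adult library limits every low tissue value. No paired analysis by replicate number was possible because each group has 1 library and the labels number none; the cell line term of the fit already compares times within lines.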

Other observations

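Neighbours of the integrin genes in the RefSeq gene order of GRCm38 were read alongside them. Pdk1, a pyruvate dehydrogenase kinase beside Itga6, was at 10.1 RPKM at 0h and 52.1 RPKM on day 7 in 3T3-L1, and at 7.55 and 85.5 RPKM in brown cells. Pdk2, another such kinase beside Itga3, was at 3.81 and 25.7 RPKM in 3T3-L1 and at 2.05 and 28.3 RPKM in brown cells, while Itga3 fell. Fam171b beside Itgav was at 5.02 and 0.07 RPKM in 3T3-L1 and at 12.4 and 1.17 RPKM in brown cells. Zfp385a beside Itga5 was at 18.5 RPKM at 0h, 130.3 RPKM on day 2 and 35.6 RPKM on day 7 in 3T3-L1, and at 21.3, 57.8 and 22.4 RPKM in brown cells. These genes were chosen by position and singled out after their values were seen, and none of these differences was tested here.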
